A study of Mus musculus with 2 samples.

Results

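The receptor pairs by which macrophages sense endotoxin were compared between primary and self-renewing macrophages. Endotoxin, or lipopolysaccharide (LPS), is the outer membrane lipid of Gram-negative bacteria. Tlr4 encodes Toll-like receptor 4 and Ly96 its lipid-binding partner MD-2, while Cd180 encodes the related receptor RP105 and Ly86 its partner MD-1. Cd14 encodes the co-receptor that hands LPS to TLR4 and MD-2. These 5 genes were taken by name, and their probes were found through the transcript accession that the array gives for each probe. They are 5 of the 22910 genes that could be named, of which 15516 were detected, meaning well above background by the scanner software on 1 array or both. The 5 genes are covered by 9 probes. The genes were picked with their differences on these arrays already known, so the values below describe them and were not tested.

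The study cultured total bone marrow cells of C57BL/6 mice with 100 ng/ml recombinant human M-CSF, the growth factor on which macrophages depend, and asked what drives self-renewal in macrophages. The primary macrophages were the adherent cells at day 5 by the sample label. The self-renewing macrophages were taken after passage 4 and descend from the colonies that outgrew a largely arrested culture. The methods name uncloned cells as the default, and nothing there sets the array sample apart from it. RNA of each was measured on 1 Agilent mouse expression array with 1 dye, so that no value has a replicate. Both arrays lay on 1 slide and were read in 1 scan. The labels name no LPS treatment and give male mice for both, but the sex-linked genes differed between the arrays. Xist, an RNA made from an inactive X chromosome, was detected in the primary macrophages alone, and 4 of 6 Y-linked genes in the self-renewing macrophages alone. The donors' sex and the cell type therefore cannot be told apart in any value below. Of 10 macrophage markers, 10 were detected on both arrays, among them Csf1r, which encodes the M-CSF receptor.

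TLR4 binds the lipid A part of LPS only together with MD-2, which holds the acyl chains in its pocket, and it signals through the adaptors MyD88 and TRIF. RP105 resembles the outer part of TLR4 but lacks the signalling domain inside the cell, and it needs MD-1 to reach the cell surface. In B cells RP105 is known to promote activation, and in macrophages and dendritic cells it has been described as a restraint on TLR4. MD-1 and MD-2 belong to the ML domain family of small lipid-binding proteins.

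Cd180 and Ly86 both lie on chromosome 13, and the 250 bases before their start sites are shown because these partner genes parted on the arrays (RefSeq, GRCm38.p6, plus strand, 5′ to 3′, with CpG dinucleotides in capitals). The Cd180 window is chr13:102693297-102693546, before the first of 2 start sites that lie 11 bases apart, and the Ly86 window is chr13:37345095-37345344.
Cd180: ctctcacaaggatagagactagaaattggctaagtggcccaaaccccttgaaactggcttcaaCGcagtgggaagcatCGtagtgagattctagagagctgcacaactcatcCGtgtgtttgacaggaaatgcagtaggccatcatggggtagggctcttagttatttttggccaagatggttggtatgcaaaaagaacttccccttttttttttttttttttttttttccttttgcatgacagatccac
Ly86: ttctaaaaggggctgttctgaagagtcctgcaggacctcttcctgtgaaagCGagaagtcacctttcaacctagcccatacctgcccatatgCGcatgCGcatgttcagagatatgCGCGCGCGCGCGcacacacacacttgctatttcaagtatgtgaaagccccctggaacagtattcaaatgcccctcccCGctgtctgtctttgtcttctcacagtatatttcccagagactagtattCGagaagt
The Cd180 window holds 3 CpG dinucleotides and the Ly86 window 11, mostly in a run of alternating C and G. Of 32851 promoter windows of that length, 37.8% held as few CpG dinucleotides as Cd180 or fewer, and 35.6% as many as Ly86 or more. Neither window held GAGGAA (a PU.1 core, in 23.3% of all windows), a pair of GAAA motifs with 2 bases between them (a core of interferon response elements, in 2.98%), TGANTCA (AP-1, in 6.75%), GGG followed by CC with 5 bases between them (NF-κB, in 45.8%) or TATAAA (the TATA box, in 12.4%) on either strand.

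All 9 probes were well above background on both arrays, so that each has a measured difference and none a bound. Signals are given as background-corrected intensity, and differences as log2 of self-renewing over primary, after each array was scaled to the 75th percentile of its gene probes. The ± beside a difference is the scanner software's own error estimate for the pair of spots. It covers the reading of the spots and not the spread between cultures. For scale, the SD between probes of 1 gene was 0.319 on the log2 scale, taken from 5077 genes that had several. Signals of different probes cannot be set against each other, and each probe is read only against itself.

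In the self-renewing macrophages Ly86 was 178-fold lower, whereas the other 4 genes differed by less than 2-fold. Thus 1 of the 5 genes was at least 2-fold lower, and at least 5-fold lower, against 8.38% and 2.93% of all genes tested, and 0 were at least 2-fold higher, against 4.76%. Since the genes were chosen on this contrast, nothing is read from these shares. The median of the 5 differences was -0.35 log2, beside -0.02 log2 over all genes tested.

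The probe of Tlr4 with the brighter signal, here probe 1, read 1573 in the primary and 2042 in the self-renewing macrophages. Its difference was 0.34 ± 0.20 log2, or 1.26-fold higher. Probe 2 read 117.0 and 114.9, a difference of -0.068 ± 0.21 log2, so that the direction of Tlr4 depended on the probe. Ly96 was represented by probes for different transcript accessions of the gene. The brighter one read 8525.5 and 8192 with a difference of -0.098 ± 0.20 log2, and the dimmer one 273 and 292 with a difference of 0.056 ± 0.20 log2. Both differences of Ly96 and the second of Tlr4 were smaller than their own error, and that of the brighter Tlr4 probe was close to the SD between probes.

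Cd180 was lower on both of its probes by a small amount, which for probe 1 was close to the SD between probes. Probe 1 read 658 in the primary and 530.2 in the self-renewing macrophages, at -0.35 ± 0.20 log2, and probe 2 read 559 and 386, at -0.57 ± 0.20 log2. The RNA of RP105 was therefore still detected after passage 4, at 1.28-fold and 1.49-fold below its signal in the primary macrophages. Ly86 had 1 probe and 1 spot, which read 15562.5 ± 1556 in the primary and 90.0 ± 9.38 in the self-renewing macrophages. The difference was -7.47 ± 0.21 log2. Before correction the Ly86 spot had a median brightness of 16908 over a local background of 30 on the primary array, and 143 over 30 on the self-renewing array. The remaining signal of Ly86 lay 2.77 log2 over that of the dimmest detected probe of the self-renewing array. No second probe of Ly86 was there to compare. In bulk RNA of this kind, fewer cells that express a gene and less RNA per cell cannot be told apart.

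Cd14 was 1.60-fold lower by both of its probes. They read 27736.5 and 21336 in the primary macrophages, and 17781 and 13748 in the self-renewing macrophages. The differences were -0.68 ± 0.20 and -0.675 ± 0.20 log2, and so nearly equal.

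**Figure D1:**
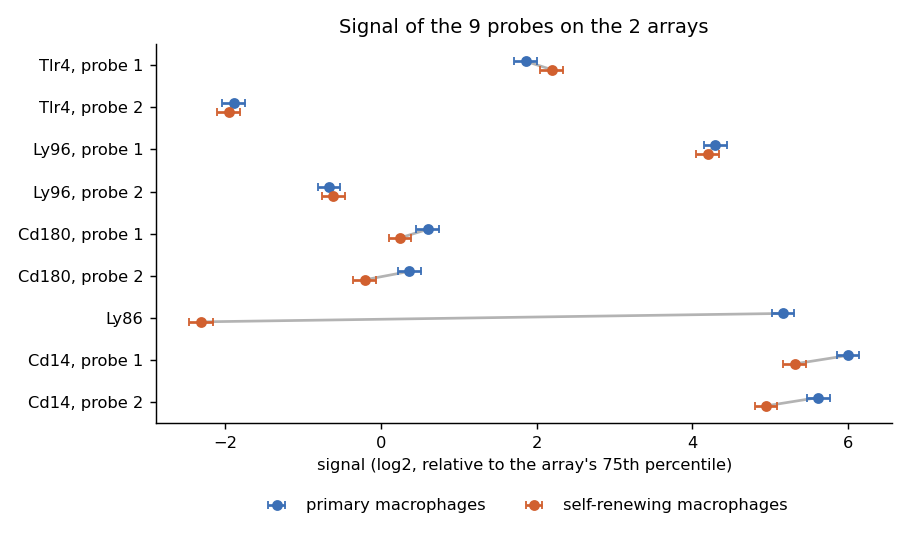
Signal of each of the 9 probes on the primary (blue) and self-renewing (orange) array, in log2 relative to the array's 75th percentile. Bars are the scanner software's error of each spot, and each row is read only against itself. Ly86 moves from 5.17 to -2.31 log2, while every other probe moves by less than 1 log2.

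The contrast between each receptor and its partner was then taken as the log2 difference of the receptor less that of the partner, which does not depend on the scaling between arrays. For Tlr4 and Ly96 it was 0.43 ± 0.29 log2 by the brighter probes, and from -0.12 to 0.43 log2 over the 4 pairs of probes. For Cd180 and Ly86 it was 7.12 ± 0.29 log2 by the brighter Cd180 probe and 6.90 ± 0.29 log2 by the other, so that the receptor's RNA gained 139-fold and 120-fold on that of its partner. The contrasts differed between the pairs by 6.69 log2. This gap came from the partners, as Ly86 changed by -7.38 log2 relative to Ly96. The receptors narrowed it, as Cd180 changed by -0.69 log2 relative to Tlr4.

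For comparison, 20 other complexes of 2 chains known from macrophages were listed after the values of the 5 genes were known. In 19 of them both chains were well above background on both arrays. The size of their contrast ranged from 0.047 to 2.53 log2, with a median of 0.62 log2, and was at least 2-fold in 9 complexes. The contrast of the Tlr4 pair lay within this range, and that of the Cd180 pair above it. The range is that of the listed complexes with both chains detected, and a wider contrast was left out. Itgax, which joins Itgb2 in another integrin, was at -3.16 log2, beside -0.047 log2 for Itgb2. The widest of the 19 were Tlr2 less Tlr1, at 2.53 log2, and H2-DMa less H2-DMb1, at -2.43 log2.

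**Figure D2:**
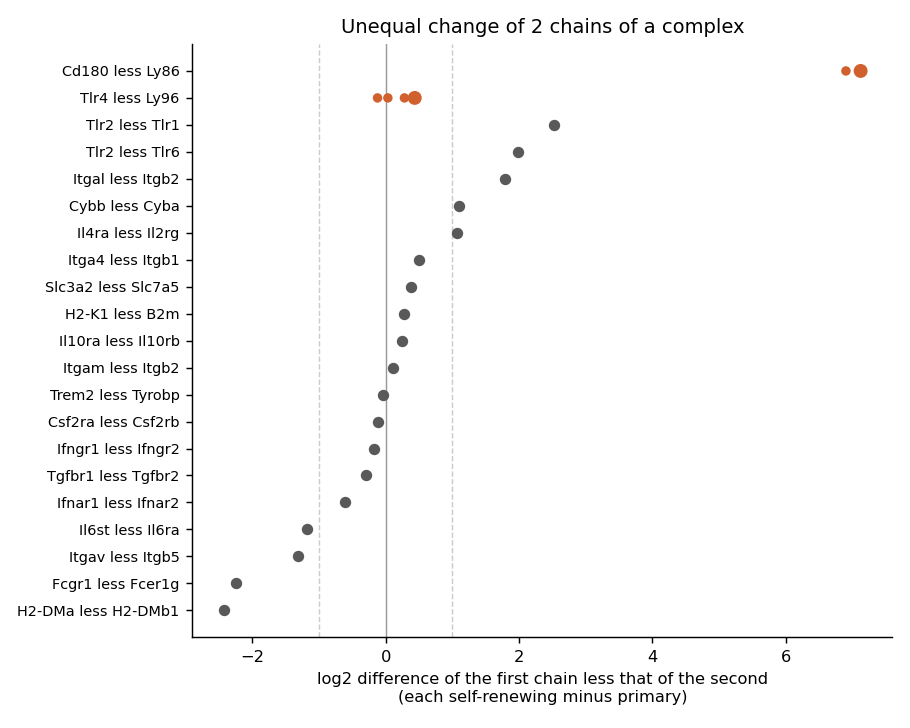
Difference in log2 change (self-renewing minus primary) between the chains of a complex, with dashed lines at 2-fold. Orange points are the pairs of probes of the endotoxin receptors, the larger one for the brighter probes, and grey points are 19 other complexes. The Cd180 pair lies at 6.90 and 7.12 log2, and the other complexes between -2.43 and 2.53 log2.

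Among 14003 genes well above background on both arrays, 1 had a larger difference towards the primary macrophages than Ly86, and 4 were at least 100-fold lower. This ranking leaves out genes detected in the primary macrophages alone. Some of those had bounds larger in size than the difference of Ly86, among them S100a9 at -10.96 and S100a8 at -9.64 log2. The genes nearest to Ly86 in log2 difference among the other 14002 were Hpse, which encodes heparanase, at -7.40, Prxl2a at -7.55 and Mmp8, the neutrophil collagenase, at -7.21. With 2 arrays this likeness rests on 1 difference and says nothing of shared control. The differences of the other 4 genes lay where most genes did, as the middle 90% of the 14003 genes reached from -1.07 to 0.91 log2.

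**Figure D3:**
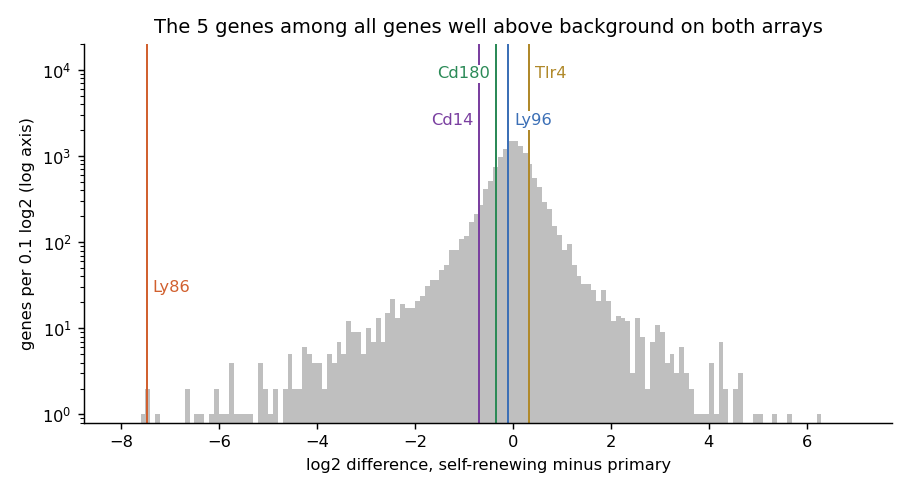
Distribution of the log2 difference (self-renewing minus primary) over 14003 genes well above background on both arrays, with a log axis for the number of genes and lines at the 5 genes. Ly86 stands at the left end at -7.47 log2, and Cd14, Cd180, Ly96 and Tlr4 lie between -0.68 and 0.34 log2. Genes detected on 1 array only, some with bounds beyond Ly86, are left out.

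The other members of the ML domain family did not share the low signal of Ly86. Npc2, which carries cholesterol out of the lysosome, differed by 0.11 log2, and Gm2a, the activator protein for ganglioside breakdown, by -0.56 log2. Together with Ly96 and Ly86, 1 of the 4 was at least 2-fold lower and 0 were higher. Over all genes tested, 8.38% were at least 2-fold lower and 4.76% higher. The counts of the lists below stand beside these shares.

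Of 9 genes for the delivery and clearance of LPS, 8 were detected. Of these 1 was higher by 2-fold or more and 2 were lower, with a median of -0.36 log2. Aoah, the enzyme that strips acyl chains from lipid A, was higher by 4.54-fold, at 2.18 log2, and its second probe gave 2.02 log2. The scavenger receptors Cd36 and Scarb1 were lower, at -2.88 and -1.72 log2, and Msr1 was at 0.58 log2. The integrin chains Itgam and Itgb2, which form Mac-1, were at 0.062 and -0.047 log2. Lbp, which encodes the LPS binding protein of serum, was dim and detected in the primary macrophages alone, so that it has only a bound, of -0.83 log2. A bound is the smallest size the difference can have, taken against the dimmest signal that counted as detected on the other array.

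Of 9 genes for the folding and transport of these receptors, 9 were detected on both arrays. None passed 2-fold upwards and 1 did downwards, with a median of 0.23 log2. Hsp90b1 encodes gp96, the chaperone that Toll-like receptors need, and was at -0.029 log2. Its co-chaperone Cnpy3 was at 0.23 and the related Cnpy4 at -0.020 log2. Tmed7, Rab10 and Rab11a, which act in the transport of TLR4 to the surface and to endosomes, were at 0.48, 0.72 and 0.34 log2. Rnf216, a ubiquitin ligase, was at 0.24 and Unc93b1, the escort of endosomal Toll-like receptors, at -0.32 log2. Rab7b, a small GTPase of late endosomes, was 2.05-fold lower, at -1.04 log2. It fell short of 2-fold with quantile normalization and with the authors' scaled values.

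Downstream of TLR4, 15 of 15 adaptors and proximal kinases were detected on both arrays, 1 of them, the kinase gene Ikbke, at least 2-fold higher and 0 lower, with a median of 0.16 log2. The kinase gene Irak2 was at 0.51 log2 by its brighter probe and at 1.58 log2 by the other. With the mean over probes, the dimmest probe or the authors' scaled values, 2 genes were at least 2-fold higher. Of 13 inhibitors of the pathway, 2 were at least 2-fold higher and 2 lower, with a median of 0.34 log2. Over all genes tested, 4.76% were at least 2-fold higher and 8.38% lower. Pilra, an inhibitory receptor with a tyrosine motif, was 4.99-fold higher at 2.32 log2. Sarm1 was higher too, at 1.74 log2, but dim, at an intensity of 38.9 in the primary and 134 in the self-renewing macrophages. With the normexp background correction 1 inhibitor was at least 2-fold higher and 1 lower. Il1rl1, the receptor of interleukin-33, and Sigirr were lower, at -2.31 and -1.20 log2. Of 8 genes for kinases and adaptors that RP105 uses in B cells, 8 were detected on both arrays and 0 differed by 2-fold in either direction, with a median of 0.20 log2. Among these were Lyn at 0.33, Vav1 at 0.28 and Btk at -0.0065 log2, and the largest difference was that of Blnk, at 0.92 log2. These were named here after their values were seen. With the authors' scaled values 1 gene of this list was at least 2-fold higher.

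Most neutrophil markers and part of the monocyte markers were lower along with Ly86, and the other lists of blood cells held fewer such genes. Sums of intensity over a list are given for each array, and they weight each gene by the brightness of its probe. Of 10 neutrophil markers, 9 were detected and 7 were at least 2-fold lower in the self-renewing macrophages, against 8.38% of all genes tested. Their summed intensity was 45636 in the primary and 2944 in the self-renewing macrophages, and S100a9, S100a8, Ngp and Ltf were detected in the primary macrophages alone. Elane, at -0.47 log2, gave 3602 and 2671 of these sums, and so most of the second. Cxcr2 was dim and detected in the self-renewing macrophages alone, with a bound of 0.47 log2. The median of the neutrophil list was -5.20 log2, and lay between -5.21 and -2.94 log2 under 9 other ways of processing the arrays, the smallest in size with the normexp background correction. Of 8 monocyte markers, 5 were at least 2-fold lower and 2 higher. One of those lower, Fn1, had a bound of -3.70 log2 by its brighter probe, while the other probe went the opposite way, at 1.44 log2. With the dimmest probe of each gene 4 were lower and 3 higher. Chil3, F13a1 and Plac8 were detected in the primary macrophages alone, with bounds of -8.26, -7.64 and -5.58 log2, and the chemokine receptor gene Ccr2 was at -6.64 log2. Those higher were Ly6c2, at 2.50 log2, and Cx3cr1, at 1.09 log2. The summed intensity of the monocyte list was 17980 and 33602, of which the Ly6c2 probe gave 5025 and 29296, so that the sum does not describe the list. The median of the monocyte list was -4.64 log2 with bounds included. It was -2.51 log2 with normexp, -1.62 log2 with the dimmest probe of each gene and 0.60 log2 over the genes detected on both arrays, so that its direction depended on the genes with bounds. Of 10 dendritic cell markers, 3 were at least 2-fold lower, namely Ccr7, Itgax and Batf3, and 0 higher, while Xcr1, Clec9a and Dpp4 were not well above background on either array. Siglech, a marker of plasmacytoid dendritic cells, was at 0.092 log2. The summed intensity of the list was 89783 and 92760. Of this the Siglech probe gave 83903 and 91973, so that the sum does not describe the other genes. What part these cell types had in the difference of Ly86 was not tested.

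B cells also express Cd180 and Ly86. Of 10 B cell markers, 6 were detected, while Ms4a1, Ebf1, Fcrla and Pou2af1 were so on neither. At least 2-fold lower were 2, among them Cd79b, and 0 were higher. Cd79b was detected in the primary macrophages alone, at an intensity of 696 and with a bound of -5.77 log2. Cd79a, Pax5 and Cd22 were detected on both arrays, at 0.41, -0.032 and -0.023 log2. A dimmer probe of Cd22 gave -1.83 log2, so that the size of its difference depended on the probe. The summed intensity of the list was 1419 in the primary and 713 in the self-renewing macrophages, and nearly all of that drop came from the Cd79b probe, which read 2.96 in the self-renewing macrophages. Of 10 macrophage markers, 1 was at least 2-fold lower, the Fc receptor gene Fcgr1 at -1.76 log2, and 1 higher, the engulfment receptor gene Mertk at 2.23 log2, and their summed intensity went from 384514 to 538380. Lists of T and NK cells, of erythroid cells and megakaryocytes, and of mast cells and basophils held 1, 2 and 0 genes at least 2-fold lower, and 0 higher each. Those lower were Nkg7 in the first list, and Hba-a1 and Pf4 in the second.

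**Figure D4:**
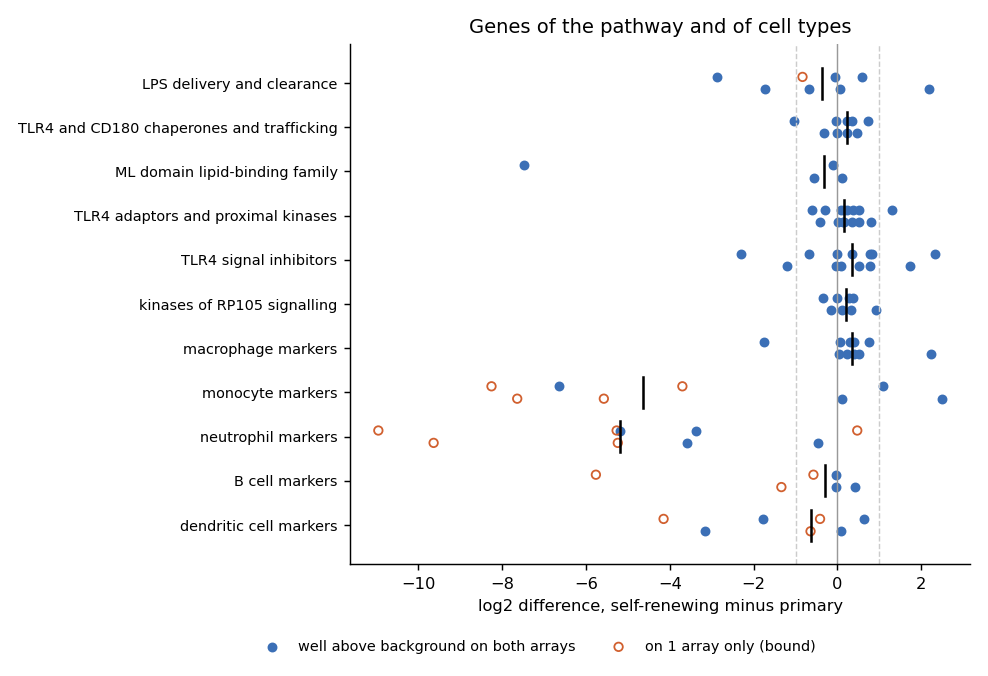
Log2 difference (self-renewing minus primary) of each gene of the pathway lists and of 5 cell type lists, with black bars at the median of each list and dashed lines at 2-fold. Open circles are lower bounds on the size, for genes well above background on 1 array only. Ly86 is the point at -7.47 log2 in the ML domain row, and the neutrophil and monocyte rows have medians of -5.20 and -4.64 log2, the latter resting on genes with bounds.

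By the gene order of GRCm38.p6, the measured genes next to Ly86 were Gm30240 at -0.10 log2 on 1 side and Rreb1 at 0.28 log2 on the other. Beyond them lay F13a1, the factor XIII A chain, with its bound of -7.64 log2, and Ssr1 at -0.57 log2. A dimmer probe of F13a1 had a bound of -0.45 log2. Of the 10 nearest measured genes, 5 on each side, 1 was at least 2-fold lower and 1 higher, and their median was -0.08 log2. Next to Cd180, Pik3r1 was at -0.14 and Mast4 at -0.79 log2, with 4922502H24Rik at 0.14 and 1700099I09Rik at -1.06 log2 beyond them. The neighbours of Tlr4, Trim32 and Cdk5rap2, were at 0.21 and -0.32 log2, and Astn2 and Megf9 beyond them at -0.21 and 1.46 log2. Around Ly96, Tmem70 was at 0.0057, Gm28783 at 0.0065 and Eloc at 0.099 log2, and Pi15 was detected in the self-renewing macrophages alone, with a bound of 3.35 log2. Around Cd14, Tmco6, Slc35a4 and Ndufa2 were at -0.24, -0.14 and 0.25 log2, and E230025N22Rik had a bound of -2.53 log2.

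Over the same 9 alternatives, Ly86 ranged from -7.49 to -6.72 log2, Cd14 from -0.70 to -0.49 log2 and Cd180 from -0.57 to -0.16 log2, and these kept their sign. Tlr4 ranged from -0.068 to 0.52 log2 and Ly96 from -0.15 to 0.090 log2. Tlr4 changed its sign under 1 alternative, the dimmest probe, and Ly96 under 2, the dimmest probe and the authors' scaled values. Ly86 had 1 probe, detected on both arrays, so the 2 filters and 2 probe rules could not change its value. The 2 filters could not change the other genes either, as all their probes were detected on both arrays. The authors' values and the 2 scalings over detected probes only moved all genes by the same amount.

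**Figure D5:**
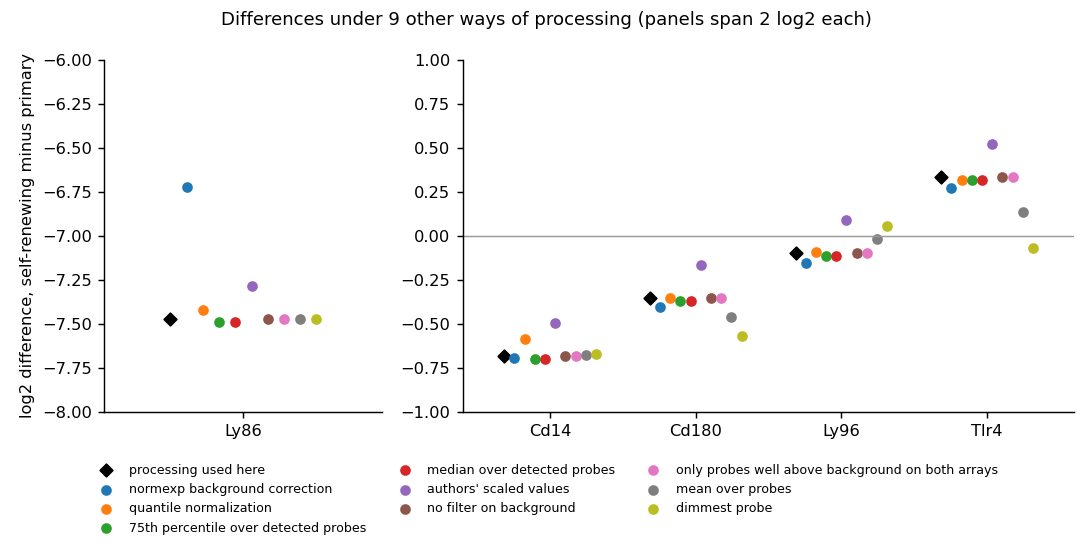
Log2 difference (self-renewing minus primary) of Ly86 (left) and of the other 4 genes (right) under the processing used here (black diamonds) and 9 alternatives (coloured points). Ly86 stays at or below -6.72 log2 in all of them.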

How the data were processed

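RNA of 1 culture of primary and 1 of self-renewing macrophages was labelled with Cy3 and hybridised to Agilent SurePrint G3 mouse arrays. The authors deposited the Feature Extraction 11.5.1.1 files of both arrays, with each spot's raw intensity, its intensity corrected within the array for background and spatial trend, and flags for detection. A table deposited by the authors holds linear intensity values, which equal the corrected intensity times 1.07 on the primary and 1.19 on the self-renewing array. The reason for these constants is not given in the sources used here. Column medians were 48.9 and 51.1.

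Here log2 of the corrected intensity was taken less the 75th percentile of the array's gene probes, an intensity of 434 on the primary and 446 on the self-renewing array. Control spots and 63 outlier spots on each array were left out. Of 56598 probes, 32988 were named through their accession in a RefSeq table of GRCm38.p6. The array was designed on an earlier assembly, so the table served for names and gene order. A gene was represented by its brightest probe. A gene detected on 1 array alone was given a bound, against the higher of the lowest signal well above background and its own signal on the other array. There were 34808 probes well above background on the primary and 33095 on the self-renewing array, and 0 saturated spots. For probes printed as 10 spots the median SD on the log2 scale was 0.043 on the primary and 0.046 on the self-renewing array. With 1 array per cell type no test was made, and the number of arrays limits the precision.

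The 5 genes and all lists were chosen with earlier results of these data known. Named genes are the 5 genes, all detected genes of the lists of LPS delivery, transport and the ML domain, up to 4 genes of at least 2-fold from each other list, the 3 genes nearest to Ly86 and the 2 measured neighbours on each side. Genes named otherwise were chosen after their values were seen. The values of 1 listed B cell marker are not reported here. Alternatives were a normexp background correction (offset 50), quantile normalization, 2 scalings over detected probes, the authors' scaled values, 2 filters and 2 rules for the probe. The calculation was run on simulated arrays with known differences and little noise. That checks its steps and not the spread between cultures. Python 3.11.15 with numpy 2.4.6 and pandas 2.3.3, and R 4.3.3 with limma 3.58.1 were used. Promoter sequences were in the table for 2 of the 5 genes.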

Additional observations from a re-analysis of the deposited data

How the results depend on the processing

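No paired analysis was possible because there was 1 array for primary and 1 for self-renewing macrophages, and for that reason no replicate could be left out. A difference was taken as unmoved when it stayed within 0.319 log2, the SD between probes of a gene. Cd14, Cd180 and Ly96 were unmoved under all 9 alternatives, of which the 2 filters could not move them. With normexp, which adds an offset to every signal, Ly86 was at -6.72 log2 and Cd180 less Ly86 at 6.31 log2, with 750 genes past 2-fold downwards, 429 past 2-fold upwards and 192 past 5-fold downwards, against 1300, 739 and 454. With the dimmest probe, Tlr4 was at -0.068 log2 and Tlr4 less Ly96 at -0.12 log2. With no filter on background 2336, 1192 and 778 genes passed these limits over 22910 genes, and with only probes well above background on both arrays 782 were 2-fold and 201 were 5-fold lower, over 14007 genes. The authors' scaled values raised all probes by 0.19 log2, so that 49.2% of the genes past 2-fold were higher, against 36.2%. Of 134 list medians under the alternatives, 16 moved by more than the SD between probes, those of the neutrophil and monocyte lists among them. Both Ly86 values rest on 1 spot on each array, and Ly86 was dim on the self-renewing array.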
